A study of Mus musculus and Homo sapiens with 40 samples.

Results

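The loci of 8 genes for transcription factors that steer myeloid fate, *Spi1*, *Irf8*, *Klf4*, *Zeb2*, *Gfi1*, *Nfil3*, *Id1* and *Id2*, were examined in ChIP-seq peak lists from HPC-7 cells, a mouse hematopoietic progenitor cell line. Each locus was the gene body with 50 kb on both sides in the GENCODE M39 annotation of mm39, and a peak belonged to a locus when its summit lay inside it. The 8 loci are 8 of 21757 loci of protein-coding genes. HPC-7 cells had received a retroviral transgene of the p42 or the p30 isoform of CEBPA fused to ERT2, a hormone-binding fragment of the estrogen receptor that lets 4-hydroxytamoxifen control nuclear entry, and transduced cells carried GFP. The isoform p42 is full-length CEBPA, and p30 is the shorter form that lacks the N-terminal transactivation region and is made from mutant *CEBPA* in acute myeloid leukemia. H3K27ac, a mark of active promoters and enhancers, was mapped in untreated cells and after 2 h with LPS at 100 ng/mL, H3K4me1, a mark of enhancers, in untreated cells, and CEBPA binding in untreated cells with an antibody against CEBPA (anti-CEBPA) and another against the ERT2 part (anti-ER). The 10 mouse lists stem from a series of 40 samples, 38 of them mouse, in which 3 samples were pooled for each H3K27ac list, 2 for each H3K4me1 list and 1 library was used for each CEBPA list. According to the methods, cells with ERT2 fusions received 4-hydroxytamoxifen before the experiment, so untreated here means without LPS. The titles of the anti-CEBPA samples name no treatment, and these samples were taken as untreated. Each isoform was carried by a line of its own, so isoform and line cannot be told apart. With 1 list per condition there is no replicate spread, and the values are descriptions without a test.

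Myeloid progenitors choose between granulocyte, monocyte and dendritic fates through a small set of transcription factors that promote or repress each other's programs. PU.1, the product of *Spi1*, is the ETS factor that opens enhancers throughout the myeloid lineage, and CEBPA acts beside it at the step from progenitor to granulocyte and monocyte. IRF8 and KLF4 favor monocytes, ZEB2 is a zinc-finger factor used in monocyte and dendritic cell development, GFI1 is a zinc-finger repressor that favors granulocytes, and NFIL3 is a basic leucine zipper repressor. ID1 and ID2 lack a DNA-binding basic region and hold their helix-loop-helix partners away from DNA.

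The lists held 107141 to 142419 H3K27ac peaks, 134658 and 168035 H3K4me1 peaks and 23248 to 47517 CEBPA sites on chromosomes 1 to 19, X and Y. All 10 promoters of the hematopoietic progenitor marker list, *Kit*, *Cd34* and *Gata2* among them, carried H3K27ac in untreated cells of both lines. None of the 4 B cell and none of the 4 non-hematopoietic marker promoters did so in either line, while 3 of 4 macrophage and 1 of 4 erythroid promoters did so in both. Of 4 neutrophil promoters, 3 were marked in p42 cells and 2 in p30 cells, and of 4 T cell promoters, 0 and 1. The neutrophil promoter marked in p42 cells alone was that of *Camp*, and the T cell promoter marked in p30 cells was that of *Lck*.

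The 4 CEBPA lists merged into 53 sites in the 8 loci, and the sequences under the sites found in the most lists are shown because the comparison of the antibodies and lines rests on them. All are on the plus strand of mm39, and capitals mark matches to TTGCNNAA, the core of the CEBP motif, or to TTGCATCA, a composite of a CEBP half-site and an ATF half-site that was searched after these sequences had been seen, each on both strands. *Spi1* is represented by a site in its intron, 2.27 kb downstream of the start (chr2:90928674-90928753), and by a site 13.0 kb upstream of the canonical start, in an intron of longer annotated transcripts (chr2:90913352-90913431), in the neighborhood of the known upstream regulatory element of the gene.
Spi1 intron: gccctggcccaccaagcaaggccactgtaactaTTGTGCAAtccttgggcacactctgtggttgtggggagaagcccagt
Spi1 upstream: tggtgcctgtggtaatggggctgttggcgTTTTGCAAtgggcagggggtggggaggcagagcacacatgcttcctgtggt

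*Gfi1* is represented by a site 25.3 kb upstream, inside an intron of the neighboring gene *Evi5* (chr5:107897511-107897590), and by a site 20.8 kb upstream in an untranslated part of *Evi5* (chr5:107893019-107893048), and *Id1* by an intergenic site 5.56 kb downstream of its start (chr2:152583680-152583759). *Nfil3* is represented by its promoter (chr13:53135662-53135741), around the summit of the anti-CEBPA list of p42 cells. The summits of the other lists lay outside this stretch.
Gfi1 upstream, intron of Evi5: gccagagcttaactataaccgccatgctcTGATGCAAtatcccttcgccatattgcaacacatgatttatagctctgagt
Gfi1 upstream, UTR of Evi5: atgtcttggtaTTGTGCAAtatccatgctg
Id1 downstream: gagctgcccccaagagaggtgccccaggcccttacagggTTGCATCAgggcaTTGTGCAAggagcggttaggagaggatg
Nfil3 promoter: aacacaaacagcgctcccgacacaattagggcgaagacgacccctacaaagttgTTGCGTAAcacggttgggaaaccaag

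The remaining loci had weaker or less shared sites. The *Klf4* site lay 2.23 kb upstream (chr4:55534656-55534735) and the *Zeb2* site 160.3 kb downstream of the start, in intergenic sequence beyond the gene's end (chr2:44842902-44842981), without a match to either motif. The *Id2* site lay 46.1 kb downstream in a coding exon of *Kidins220* (chr12:25101196-25101225).
Klf4 upstream: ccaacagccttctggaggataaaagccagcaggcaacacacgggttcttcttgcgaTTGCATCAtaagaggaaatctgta
Zeb2 distal: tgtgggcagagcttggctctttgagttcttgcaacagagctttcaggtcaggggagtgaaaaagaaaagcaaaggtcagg
Id2 downstream: ctgcctcagtaTTGCACAAccatcaaaaag

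CEBPA was bound near 6 of the 8 genes in all 4 lists, and the strongest sites were at *Gfi1*, *Id1* and *Spi1*. The 8 loci held 36 sites in the anti-CEBPA list of p42 cells, 26 in that of p30 cells, 32 in the anti-ER list of p42 cells and 36 in that of p30 cells. At least 1 site was found in 8, 8, 6 and 8 of the 8 loci in that order, beside 86.7%, 79.6%, 70.5% and 79.6% of all loci, so the presence of a site near these genes was common to most genes. After merging, 16 of the 53 sites were in all 4 lists (30.2%), beside 13341 of 63759 across the genome (20.9%), and a locus with such a site was found for 56.7% of all genes. The number of sites near a gene is not independent of locus length, since the *Zeb2* locus spans 233.8 kb and held 16 merged sites, of which 1 was in all 4 lists.

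**Figure D1:**
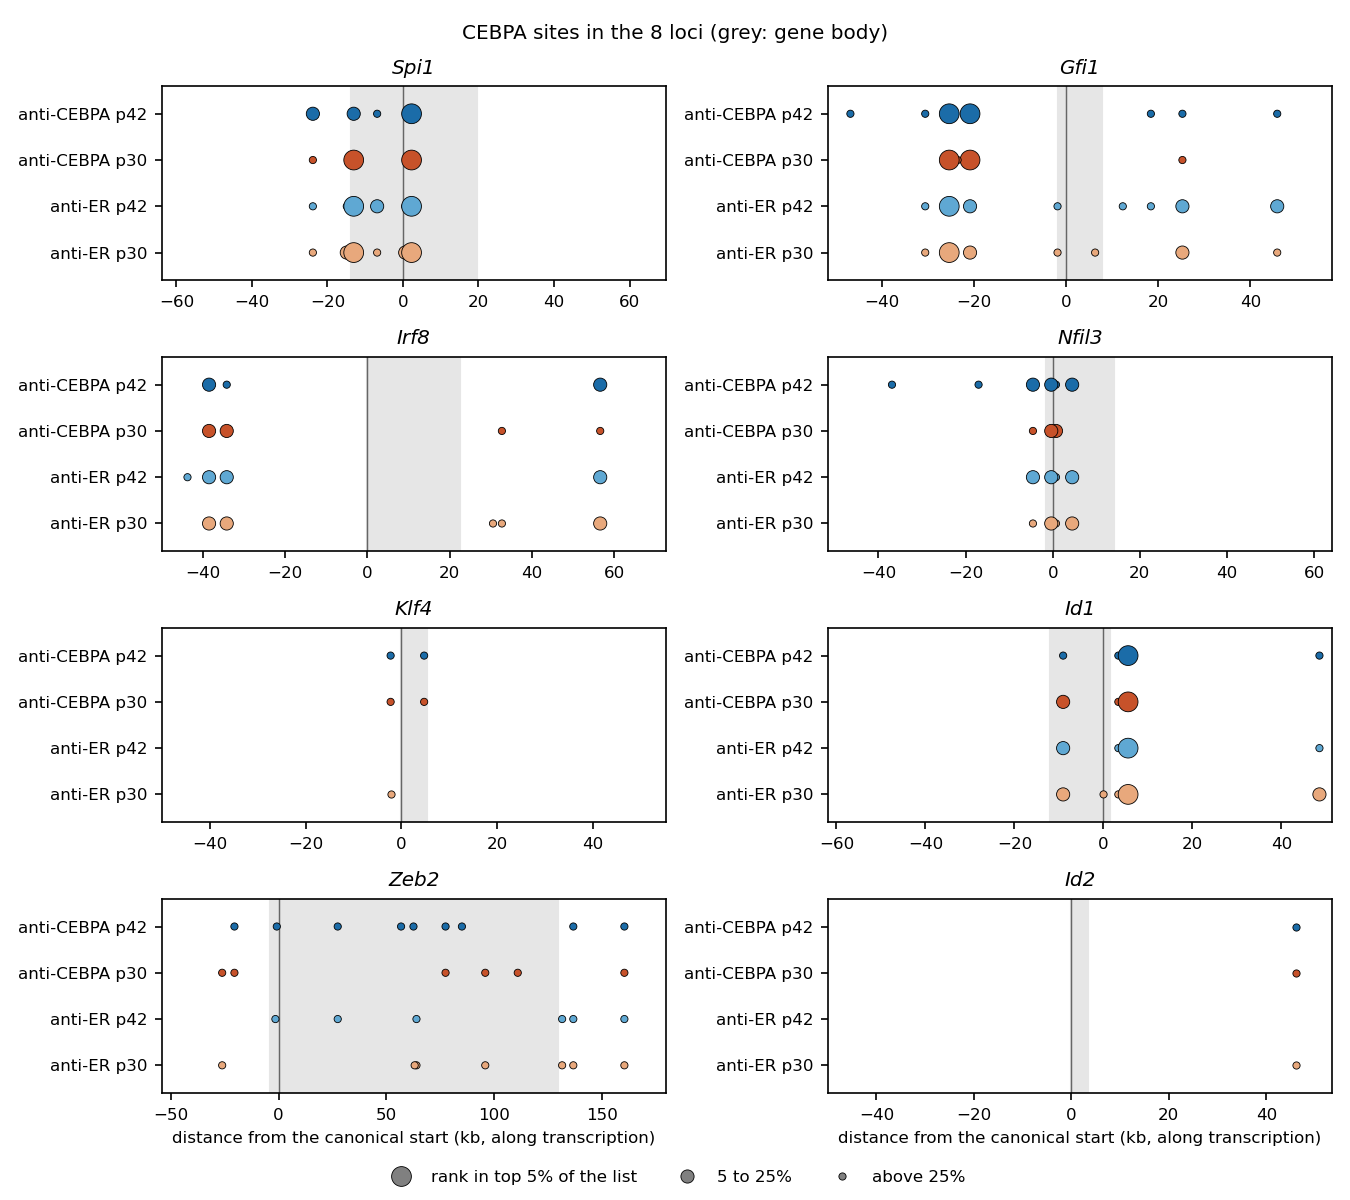
CEBPA sites in each locus by distance from the canonical start in kb (horizontal axis), with a row of points for each antibody and line. Each merged site is drawn at a single position, the summit of its best-ranked list, in every row where it was found. Larger points rank higher in their own list and grey marks the gene body. *Gfi1*, *Id1* and *Spi1* hold large points in all 4 rows. *Zeb2* holds scattered small points, and *Klf4* and *Id2* hold 2 sites and 1 site.

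Sites were ranked within their list by the authors' −log10 p-value, so rank 1 is the strongest. At the *Spi1* intron site the ranks were 711 of 47517 with anti-CEBPA in p42 cells, 881 of 31851 with anti-CEBPA in p30 cells, 631 of 23248 with anti-ER in p42 cells and 993 of 34006 with anti-ER in p30 cells. The site was among the stronger ones in every list, in the top 2.92% or better. The *Spi1* upstream site varied more and stood at rank 4244 with anti-CEBPA in p42 cells and 1238 in p30 cells. With anti-ER it stood at rank 446 in p42 cells and 141 in p30 cells, so it ranked higher in p30 cells with either antibody and higher with anti-ER in either line. A weaker site in all 4 lists lay 23.9 kb upstream, near the start of *Slc39a13*, and ranked at 17.8% to 65.2%.

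*Gfi1* had the best-ranked site of the 8 loci by mean percentage rank, 25.3 kb upstream. It stood at rank 284 with anti-CEBPA in p42 cells, 604 with anti-CEBPA in p30 cells, 346 with anti-ER in p42 cells and 111 with anti-ER in p30 cells. The neighboring site 20.8 kb upstream stood at rank 535 with anti-CEBPA in p42 cells and 1100 in p30 cells, and at 3125 and 2655 with anti-ER. This site was in the top 3.45% or better with anti-CEBPA, and at 13.4% (p42) and 7.81% (p30) with anti-ER. No H3K27ac peak of any of the 4 lists and no H3K4me1 peak of either line touched it. Of the 16 sites found in all 4 lists it was the 1 that lay outside untreated H3K27ac in both lines. Of these 16, 13 lay inside untreated H3K27ac in both lines and 7 lay inside H3K4me1 in both. The same shares were not counted over the genome, so these counts cannot be set against CEBPA sites in general.

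The downstream *Id1* site stood at rank 1967 with anti-CEBPA in p42 cells and 531 in p30 cells. With anti-ER it stood at rank 102 in p42 cells and 25 in p30 cells, which is the best rank reached by any member site in any list, in the top 0.0735%. As at the *Spi1* upstream site, the order was p30 above p42 with each antibody and anti-ER above anti-CEBPA in each line. *Id1* is a classical target of BMP signaling, and 2 further sites of its locus, 9.05 kb upstream and 3.36 kb downstream of the start, were also in all 4 lists.

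*Nfil3* was the member with a promoter peak in all 4 lists. The summit of this peak lay 335 bp upstream of the start with anti-CEBPA in p42 cells, and 24 to 26 bp downstream in the other lists. With anti-CEBPA the site ranked in the top 5.39% in p42 cells and 18.2% in p30 cells. With anti-ER it ranked in the top 12.7% in p42 cells and 8.59% in p30 cells. A peak over 1000 bp upstream to 100 bp downstream of any annotated start was found for 2 of the 8 members with anti-CEBPA in each line and for 3 (p42) and 4 (p30) with anti-ER, beside 11.1% and 10.1% of all genes with anti-CEBPA in p42 and p30 cells and 9.43% and 14.8% with anti-ER. The others were *Zeb2* with anti-CEBPA in p42 cells, *Id1* with both antibodies in p30 cells, and *Spi1* and *Gfi1* with anti-ER in both lines. Sites 751 bp downstream and 4.54 kb upstream were also in all 4 lists, and a site 4.47 kb downstream was in 3, missing from the anti-CEBPA list of p30 cells.

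*Irf8* had 3 sites in all 4 lists, none of them at the gene itself. They lay 38.5 kb and 34.2 kb upstream and 56.6 kb downstream of the start, the last at the position of the known enhancer of the gene about that far downstream. Their percentage ranks ran from 7.79% to 16.4% at the site 38.5 kb upstream, from 14.2% to 32.3% at the site 34.2 kb upstream and from 15.7% to 52.4% at the downstream site. *Zeb2*, *Klf4* and *Id2* had weaker sites. The best rank of any *Zeb2* site was 32.5% of its list, that of *Klf4* 34.2% and that of *Id2* 31.1%. Neither *Klf4* nor *Id2* had a site in the anti-ER list of p42 cells.

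Most member sites were found in both lines, at shares near those of all sites. With either antibody, 32 of the 53 merged sites were in a list of each line (60.4%), beside 53.8% of the 63759 merged sites of the genome. In p42 lists only there were 12 (22.6%, beside 28.4%), and in p30 lists only 9 (17.0%, beside 17.7%). With both antibodies in a line and neither in the other, 2 sites were in p42 lists alone, at *Zeb2* 27.4 kb downstream and at *Gfi1* 18.4 kb downstream. In p30 lists alone there were 3, at *Irf8* 32.7 kb downstream and at *Zeb2* 95.8 kb downstream and 26.2 kb upstream. Across the genome 1.94% of merged sites were of the first kind and 1.65% of the second, and the member counts are small. The *Gfi1* site was the strongest of these, at 37.1% with anti-CEBPA and 42.8% with anti-ER.

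Of the 53 sites, 26 held the CEBP core in the 200 bp centered on the summit, 12 of the 16 in all 4 lists and 14 of the 37 others. Across the genome the share was 61.1% of merged sites in all 4 lists and 42.1% of the others, and windows 5 kb to either side of the sites held the core in 8.66% to 9.32%. The composite TTGCATCA was in 6 of the 53 sites, including both *Klf4* sites, the *Gfi1* site 25.3 kb upstream and the *Id1* downstream site, and 30 of 53 held either motif. It was in 6.25% to 10.6% of all sites of the lists and in 0.547% to 0.647% of the windows 5 kb away. The lists held 26 to 36 member sites each, and the other motifs were in few of them. The RUNX motif TGTGGT was in 4 or 5 member sites per list, beside at most 21.8% of all sites and 15.3% of the windows 5 kb away. The AP-1 motif TGANTCA was in 1 to 4, beside 7.29% to 8.92% of all sites and 5.96% to 6.01% of those windows. The PU.1 motif GAGGAAGT was in 0 to 2, beside 2.39% to 4.86% and 1.18% to 1.25%. The CEBP palindrome TTGCGCAA, itself a match to the core, was in 0 or 1, beside 2.18% to 3.54% and 0.0162% to 0.0194%, and the NFIL3 motif TTACGTAA was in 0, beside 1.6% to 2.2% and 0.0368% to 0.053%. Each member site was scanned at the summit of its best-ranked list, while the shares of all sites of a list used the summits of that list. Member counts and these shares are therefore not measured in quite the same way. A match describes letters in the window and not a bound factor.

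H3K27ac covered very different amounts of sequence near the members, in untreated p42 cells from 61132 bp in the *Zeb2* locus to 198 bp in the *Klf4* locus. In the *Spi1* locus, peaks covered 52124 bp in untreated and 47248 bp in LPS-treated p42 cells, and 52178 bp and 52390 bp in p30 cells, so the 4 lists were close together. In the *Zeb2* locus they covered 61132 bp and 63388 bp in p42 cells, and 50619 bp and 75625 bp in p30 cells, with the LPS list of p30 cells the highest. The *Zeb2* locus is the longest, and as a share of the locus the peaks of untreated p42 cells covered 26.1% there, beside 33.5% at *Id1* and 29.6% at *Gfi1*. In the *Irf8* locus the values were 21061 bp and 17278 bp in p42 cells and 19360 bp and 19961 bp in p30 cells. *Klf4* had no H3K27ac peak in LPS-treated p42 cells and 1 peak of 190 to 272 bp in each other list, 42.8 to 42.9 kb downstream of the start, and no H3K4me1 peak in either line, so its locus was close to unmarked in these cells. In mm39 the plus-strand genes lie at chr2:90912562-90946101 (*Spi1*), chr8:121463096-121485659 (*Irf8*) and chr2:152566218-152579544 (*Id1*). The minus-strand genes lie at chr4:55527139-55532528 (*Klf4*), chr2:44873644-45007464 (*Zeb2*), chr5:107864523-107873902 (*Gfi1*), chr13:53121245-53137010 (*Nfil3*) and chr12:25143798-25147282 (*Id2*). The *Spi1* locus also holds the starts of *Mybpc3*, *Psmc3*, *Rapsn* and *Slc39a13*, the *Nfil3* locus that of *Auh* and the *Id1* locus those of *Cox4i2* and *Mcts2*, and their peaks count in these sums.

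**Figure D2:**
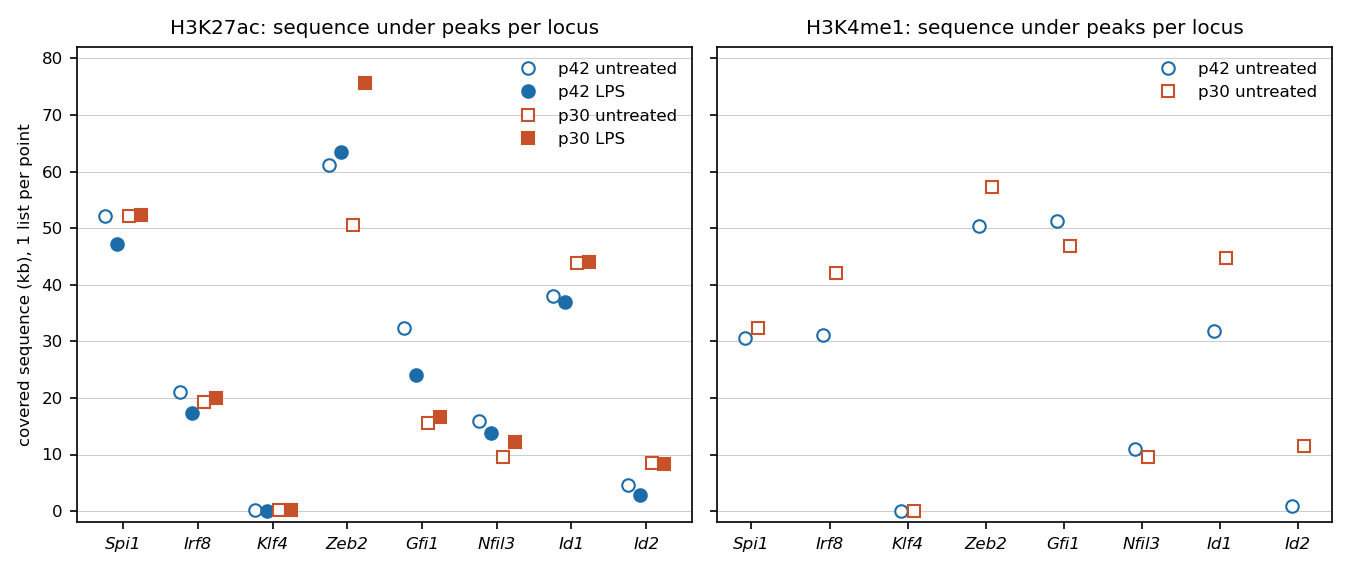
Sequence covered by peaks in each locus in kb (vertical axis) for H3K27ac (left) and H3K4me1 (right), with 1 point per list, open for untreated and filled for LPS, circles for p42 and squares for p30. *Gfi1* and *Nfil3* lie lower for H3K27ac in p30 cells than in p42 cells, *Id2* lies higher, *Zeb2* is highest with LPS in p30 cells and *Klf4* lies at or near 0.

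The LPS comparison asks how an inflammatory stimulus moves the mark near fate genes. Peaks that touched the promoter window of the canonical start were compared. Those of *Spi1* and *Zeb2* stood closer to the top of the H3K27ac lists with LPS in both lines. Those of *Gfi1* and *Id1* stood lower in both. The *Spi1* promoter peak went from the top 0.734% to the top 0.232% in p42 cells and from 0.727% to 0.180% in p30 cells, a percentage rank 3.16 and 4.03 times smaller. The *Zeb2* promoter peak went from 1.57% to 0.458% in p42 cells and from 2.98% to 0.563% in p30 cells, 3.43 and 5.30 times smaller. Its summit lay 3574 to 3591 bp inside the gene, and its width went from 9117 to 13857 bp in p42 cells and from 5975 to 9126 bp in p30 cells. A percentage rank at least 2 times smaller with LPS in both lines, a rule set after these values were seen, was met by 2 of the 5 members with a promoter peak in all 4 lists, *Spi1* and *Zeb2*, and by 54 of 10139 genes (0.533%). Among 19 other lineage factors with such a peak, 0 met it, although *Relb*, an NF-kB subunit gene named after its values were seen, had a percentage rank 1.81 times smaller in p42 cells and 5.22 times smaller in p30 cells. The median ratio of untreated to LPS percentage rank over all 10139 genes was 0.823 in p42 cells and 1.11 in p30 cells. The ranks set a peak against the rest of its list and are no measure of its absolute height.

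The other 3 members did not reach that size of change in either direction. The *Gfi1* promoter peak went from 5.27% to 9.64% in p42 cells and from 9.12% to 14.3% in p30 cells. The *Id1* peak went from 2.28% to 3.56% and from 4.06% to 5.45%. It touched the promoter window, but its summit lay 4934 to 5390 bp downstream of the start, beyond the gene's end. A peak touched the promoter window of the canonical *Id2* start in untreated p42 and LPS-treated p30 cells alone, at 16.5% and 15.0%. Its summit lay outside the window, at -1456 bp and -1444 bp from the start. A stronger peak, with its summit 836 to 893 bp downstream of the start, was in all 4 lists. This downstream peak ranked at 12.5% and 21.2% in untreated and LPS-treated p42 cells, and at 9.54% and 9.83% in p30 cells. *Nfil3* went from 3.56% to 4.85% in p42 cells and from 18.4% to 16.9% in p30 cells. A percentage rank at least 2 times larger in both lines was met by 0 of the 5 members, beside 0.986% of genes. Here *Rara*, the retinoic acid receptor gene, was the 1 of 19 other factors that met it, with 1.61% to 10.6% in p42 cells and 0.575% to 2.96% in p30 cells; it is named after its values were seen.

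**Figure D3:**
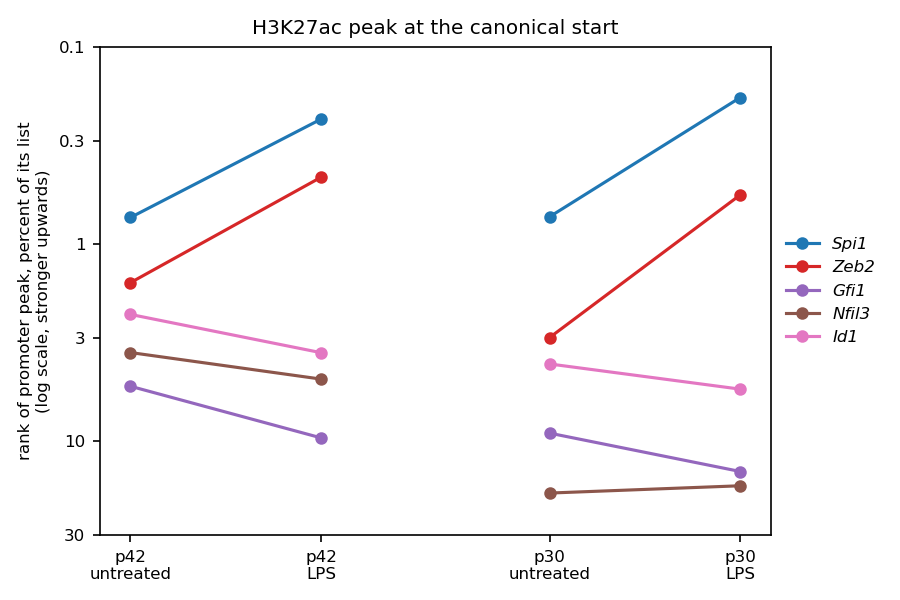
Rank of the H3K27ac peak at the canonical start as a percentage of its list (vertical axis, log scale, stronger upwards) in the 4 H3K27ac lists for the 5 members with a peak in each. The lines of *Spi1* and *Zeb2* rise with LPS in p42 and p30 cells, and those of *Gfi1* and *Id1* fall in both. *Nfil3* lies lower in p30 cells with and without LPS. The *Id1* peak has its summit 4934 to 5390 bp downstream of the start.

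A promoter peak at any annotated start was found for 7 of the 8 members in each H3K27ac list, beside 52.7%, 52.2%, 52.4% and 53.7% of all genes in untreated and LPS-treated p42 cells and untreated and LPS-treated p30 cells. *Klf4* was the exception in all 4. For *Irf8*, the marked starts were internal ones, and its canonical start carried no H3K27ac peak in any list. Its strongest peak in every H3K27ac list lay 56.7 kb downstream, at the position of the CEBPA site there, in the top 7.18% and 8.75% in p42 cells without and with LPS and 10.5% and 9.92% in p30 cells. The region 38.8 kb upstream, beside another CEBPA site found in all 4 lists, stood at 10.6% and 20.9% in p42 cells and 24.4% and 34.3% in p30 cells, so it ranked lower with LPS in each line and lower in p30 cells.

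Over whole loci, the LPS ratio of covered H3K27ac was at least 1.5 times above or below 1 for 1 member in p42 cells and for 0 in p30 cells. In p42 cells, 13.6% of loci were lower by that size and 0.709% higher, and *Id2*, with 4626 bp untreated and 2855 bp with LPS, was the member on the lower side at a ratio of 0.617. With 20 kb or 100 kb on both sides, or with peaks of q under 1e-05 only, its ratio no longer reached that size. In p30 cells, 2.5% were lower and 3.24% higher, and *Zeb2* stood at a ratio of 1.49, just inside the limit. The median ratio was 0.875 over the 7 members with at least 2000 bp and 0.832 over all loci in p42 cells, and 1.03 and 0.988 in p30 cells, so the members lay close to the other loci. The LPS list of p42 cells was the shortest H3K27ac list, and its length moves with these ratios.

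**Figure D4:**
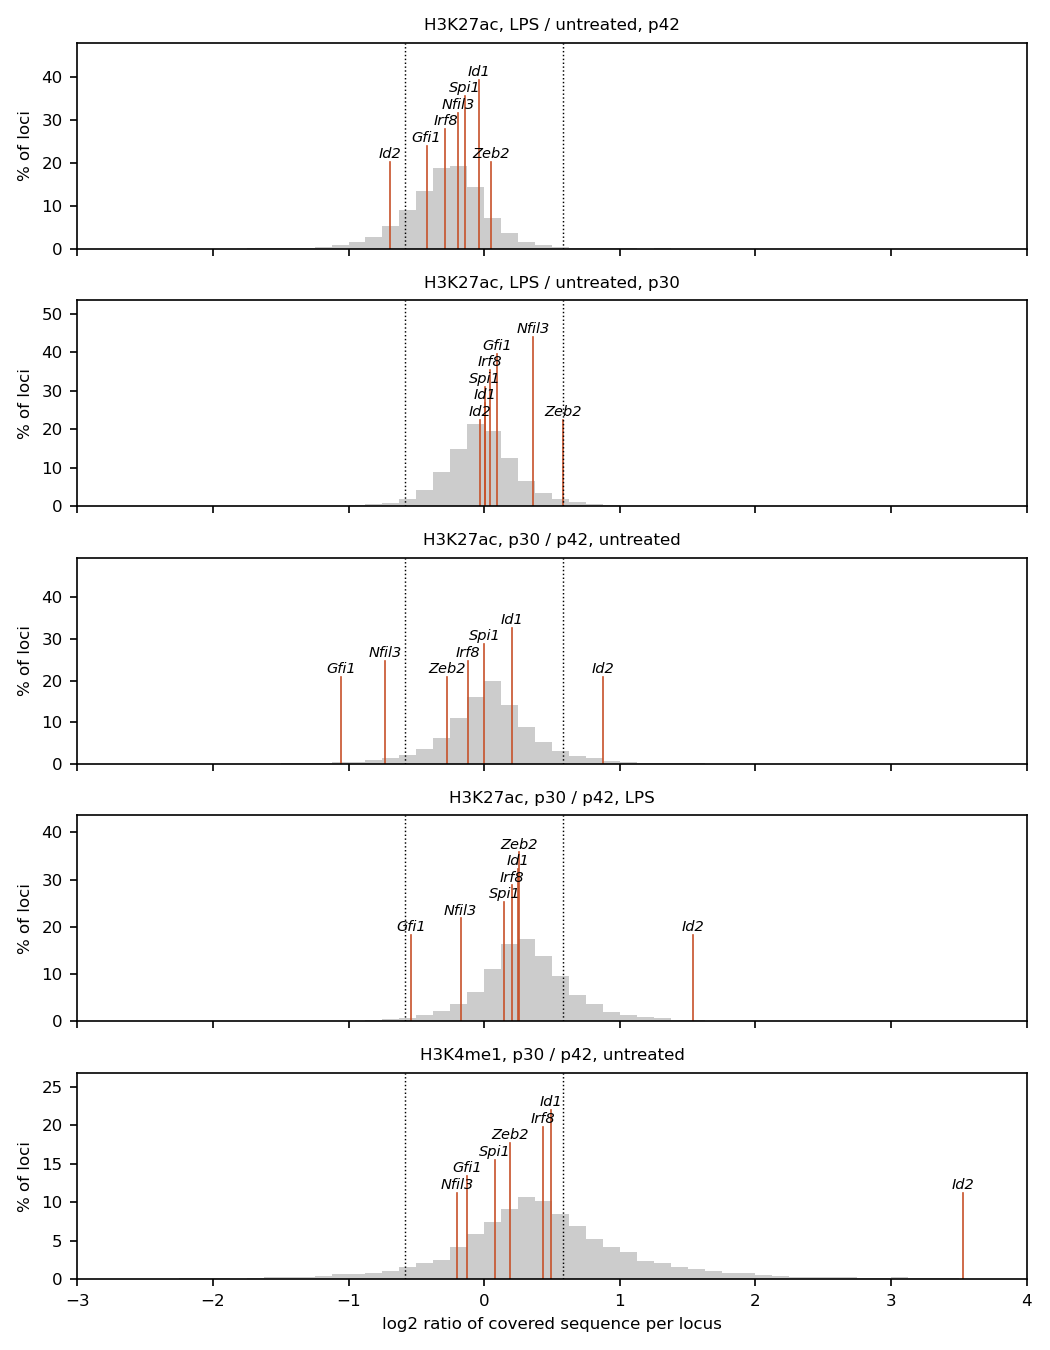
Distribution of the log2 ratio of covered sequence over all loci with at least 2000 bp (grey bars, percent of loci) in the 5 comparisons, with a line at the value of each member (line heights only separate the names) and dotted lines at 1.5 times. *Gfi1* and *Nfil3* lie in the left tail for untreated H3K27ac of p30 over p42, and *Id2* in the right tail of the 3 comparisons of p30 with p42.

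Of the 6 H3K27ac regions that appeared with LPS in both lines, 5 were at *Zeb2*, the locus with the most regions. Merging the 4 lists gave 291 regions in the 8 loci, of which 99 were in all 4 lists, 6 were gained with LPS in both lines and 6 were lost in both. The *Zeb2* locus held 98 of the 291. The gained regions made up 2.06% of the member regions and 1.66% of those of the genome, and the lost ones 2.06% and 3.95%, so the counts lay near the general shares or below them. Besides the 5 at *Zeb2*, 1 gained region was at *Gfi1*. A locus with a gained region was found for 22.9% of all genes and a locus with a lost region for 39%, beside 2 and 6 of the 8 members. The *Zeb2* regions lay 155.7, 153.2 and 130.1 kb downstream, beyond the end of the gene, and 47.2 and 33.6 kb downstream in its introns. The longest of them, 155.7 kb downstream, measured 2220 bp and ranked in the top 41.6% with LPS in p42 cells and 26.6% in p30 cells. The gained region of *Gfi1*, 39.1 kb upstream in an intron of *Evi5*, ranked at 38.9% and 79.2%. The 6 lost regions were at *Spi1*, *Irf8*, *Zeb2*, *Gfi1*, *Nfil3* and *Id2*, 1 each, and none measured more than 497 bp. When presence needed a q-value under 1e-05, 2 gained and 0 lost regions were left.

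Regions in all 4 lists rarely changed rank by 2 times with LPS in both lines. Of the 99 such member regions, 2 had a percentage rank at least 2 times smaller, the *Spi1* and *Zeb2* regions at the starts, beside 0.295% of such regions across the genome. In 1 it was at least 2 times larger, beside 0.664%, a region of 19731 bp across the downstream edge of the *Id1* locus whose strongest summit, 53.2 kb downstream and so beyond the edge, lay in an intron of *Bcl2l1*, a survival gene, and which went from 1.19% to 2.86% in p42 cells and from 0.346% to 1.99% in p30 cells. The region over the *Spi1* upstream element was 15864 bp wide when joined over the lists and also covered an annotated start of longer *Spi1* transcripts. This region went the other way from the peak at the canonical *Spi1* start, from 0.594% to 1.22% in p42 cells and from 1.31% to 1.85% in p30 cells.

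Between the lines, *Gfi1* and *Nfil3* carried less H3K27ac in p30 cells and *Id2* more. In untreated cells, *Gfi1* had 32341 bp in p42 cells and 15548 bp in p30 cells, a ratio of 0.481, and *Nfil3* had 15839 bp and 9548 bp, a ratio of 0.603. *Id2* had 4626 bp and 8503 bp, a ratio of 1.84. The call of *Nfil3* was lost with 100 kb on both sides and that of *Id2* with 20 kb, while that of *Gfi1* was kept in each of the 4 alternatives. Across all loci, 4.59% were lower and 6.56% higher by at least 1.5 times in p30 cells, with a median ratio of 1.03, and the ratios of *Spi1*, *Irf8*, *Zeb2* and *Id1* were between 0.828 and 1.16. With LPS, *Gfi1* had 24090 bp in p42 cells and 16593 bp in p30 cells, a ratio of 0.689, and *Nfil3* had 13856 bp and 12282 bp, a ratio of 0.886. Neither passed 1.5 times there with the lists as deposited and 50 kb, but *Gfi1* was lower by that size in all 4 alternatives, at ratios of 0.603 to 0.66, and *Nfil3* with 20 kb, at 0.532. *Id2*, with 2855 bp and 8316 bp, was higher at a ratio of 2.91, beside 18.6% of loci higher and 1.75% lower. The comparisons share lists, so these values are not independent of the LPS ratios above.

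The lower H3K27ac of *Gfi1* in p30 cells was spread over distal regions. Of its 39 merged regions, 9 were in both p42 lists and neither p30 list, and 1 was in both p30 lists and neither p42 list. In the genome, 2.28% of regions were in both p42 lists alone and 6.67% in both p30 lists alone. The p42-only regions included 1 of 1711 bp, 46.0 kb downstream, in the top 16.2% untreated and 23.6% with LPS, and 1 of 1045 bp, 18.1 kb downstream, at 33.1% and 52.3%. The strong regions were shared by the lines: the region 25.5 kb downstream was in the top 5.14% or better of all 4 lists. The promoter peak measured 4486 bp in untreated p42 cells and 1571 bp in untreated p30 cells.

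Several CEBPA sites lay inside H3K27ac peaks of p42 cells and outside those of p30 cells. In *Gfi1*, 4 of 11 merged CEBPA sites lay inside untreated H3K27ac of p42 cells and outside that of p30 cells, and 0 in the reverse case. The site 18.4 kb downstream was bound in p42 cells with both antibodies and in p30 cells with neither. The sites 45.8 kb downstream and 30.6 kb upstream were missing from the anti-CEBPA list of p30 cells but present in the anti-ER list of these cells. The site 23.5 kb upstream was in the anti-CEBPA list of p30 cells and in no other list. In *Nfil3* the first case held for 2 of 6 sites, those 4.47 kb downstream and 4.54 kb upstream. The upstream site was in all 4 CEBPA lists, and the H3K27ac region 4.88 kb upstream, described below, was also found in p30 cells. Over the 8 loci the counts were 9 of 53 for p42 alone and 1 for p30 alone, beside 5.18% and 1.71% of all merged CEBPA sites. Whether binding and the mark are linked at these sites was not tested.

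At *Nfil3* the difference centered on the promoter and its flanks. The peak at the canonical start was in the top 3.56% of the untreated p42 list and 18.4% of the untreated p30 list and measured 3435 bp and 633 bp. Within the span of this p42 peak, a further untreated p30 peak overlapped the CEBPA site 751 bp downstream of the start. The 2 widths and ranks thus do not compare the whole stretch. The region 4.88 kb upstream ranked at 4.75% and 7.95% in p42 cells without and with LPS and at 37.8% and 83.6% in p30 cells. The region 4.19 kb downstream ranked at 14.3% and 10.4% in p42 cells and was absent from both p30 lists. The region at the *Auh* promoter in the same locus was at 5.96% and 7.38% in untreated p42 and p30 cells.

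*Id2* had more of both marks in p30 cells. H3K4me1 covered 988 bp in 3 peaks in p42 cells and 11424 bp in 20 peaks in p30 cells, a ratio of 11.6. Its best H3K4me1 peak, 23.0 kb upstream, was at 60.1% of the p42 list and 11.6% of the p30 list. Across all loci, 35.7% were at least 1.5 times higher and 5.43% lower in p30 cells with a median ratio of 1.32, so the H3K4me1 list of p30 cells covered more sequence in general. The other members with H3K4me1 had ratios between 0.87 and 1.41. *Nfil3* had 10891 bp in p42 and 9478 bp in p30 cells, and *Gfi1* 51269 bp and 46918 bp. *Spi1* had 30647 bp and 32375 bp, and *Zeb2* 50319 bp and 57314 bp. *Irf8* had 31187 bp and 42153 bp, and *Id1* 31864 bp and 44784 bp. All 6 stayed within 1.5 times with 50 kb on both sides. With 20 kb, *Nfil3* was lower at a ratio of 0.581, the setting where its untreated H3K27ac ratio was 0.438. *Irf8* was higher at 1.55 with 20 kb and at 1.69 with peaks of q under 1e-05, while *Gfi1* stayed within 1.5 times in each alternative. The best H3K4me1 peaks of *Spi1*, *Gfi1* and *Zeb2* stood in the top 0.779%, 1.03% and 1.17% of the p42 list and 0.646%, 1.26% and 0.98% of the p30 list. The *Id2* region 853 bp downstream of the start was at 12.5% and 9.54% of the untreated p42 and p30 lists. A region 22.4 kb upstream covered 776 bp at 61.9% in untreated p42 cells and 2200 bp at 27.8% in untreated p30 cells, and was absent from the LPS list of p42 cells. The *Id2* locus had 1 CEBPA site, which both lines shared with anti-CEBPA.

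The 24 other lineage factors, among them *Cebpa*, *Cebpe*, *Gata2*, *Myb* and *Runx1*, were compared in the same way. Of 23 with enough H3K27ac, 1 was higher (*Id3*) and 0 were lower with LPS in p30 cells, beside 3.24% and 2.5% of all loci. Between the untreated lines, 0 of the 23 changed by 1.5 times, beside 6.56% of all loci higher and 4.59% lower in p30 cells. For H3K4me1, 7 of 21 were higher in p30 cells and 0 lower, beside the general 35.7%. None of them changed by 1.5 times with LPS in both lines.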

How the data were processed

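Peak lists were examined for 10 groups of mouse HPC-7 samples, taken from the sample labels. According to the methods and processing notes, the authors trimmed reads with Trim Galore 0.6.6, aligned them with Bowtie2 to mm39, excluded duplicates marked by Picard and called narrow peaks with MACS2, with input as control. The lists of both histone marks come from replicates pooled before calling, and each CEBPA list from 1 library. A tag for calling without a shifting model is present on the other mouse lists and missing from both anti-CEBPA lists, so the settings may have differed between antibodies. For every peak the deposited files hold its fold enrichment over background, its p-value and its q-value, the last 2 as −log10, and no q-value was above 0.05. The authors' fold and −log10 values were compared only between peaks of a single list. The depth of the libraries is unknown from peak lists, and the number and width of peaks move with depth and yield. The ATF4 list of the human KO-52 line was not used here, and some comparisons of the other lineage factors are not reported here.

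Peaks on chromosomes 1 to 19, X and Y were kept, and no peak reached beyond its chromosome in the GRCm39 reference. Peak sequence was summed per locus, and a locus was called higher or lower where the ratio of 2 lists reached 1.5 and the larger value was at least 2000 bp. Lists were merged where peaks overlapped by at least 1 bp. A promoter took in 1000 bp before and 100 bp after an annotated start. A merged region belonged to a locus when any of its summits did. A percentage rank is the rank by −log10 p-value, strongest at 1, as a percentage of the list. A CEBPA site stood for a locus with its sequence when it was in the most lists, with ties settled by mean percentage rank, and in at least 3, and other sites in all 4 lists with a mean percentage rank under 10 were added. The summit of a merged site was that of the list where its percentage rank was best. Sequences of 80 bases around this summit, or 30 where an annotated UTR was touched, were read from GRCm39. None is shown for *Irf8*. The members, lists and rules were chosen with earlier results of these data known. Summing and merging were tested on simulated lists. The rule of 2 times for percentage ranks and the motif TTGCATCA were added after the data were seen. Python 3.11.15, pandas 2.3.3, NumPy 2.4.6 and matplotlib 3.10.9 were used.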

Additional observations from a re-analysis of the deposited data

Results flagged for a closer look

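For *Nfil3*, covered H3K27ac moved in opposite directions with LPS, with a ratio of 0.875 in p42 cells and 1.29 in p30 cells. It was the member whose ratio lay at least 1.1 times below 1 in a line and above 1 in the other. With 1 list per condition this difference was not tested. With 20 kb on both sides the p42 ratio was 1.01, and with 50 kb the median over all loci was 0.832 in p42 cells and 0.988 in p30 cells.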

How the results depend on the processing

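No paired analysis was possible because replicates were pooled before peaks were called or had 1 library, and for the same reason no replicate could be left out. Counts of members called moved under these settings. With LPS in p42 cells, the 1 lower member became 0 with q under 1e-05, with 20 kb and with 100 kb on both sides. With LPS in p30 cells, the 0 higher members became 2 with q under 1e-05, *Zeb2* at 1.73 and *Nfil3* at 1.67. For untreated p30 against p42, the 1 higher member became 0 with 20 kb and the 2 lower members became 1 with 100 kb, where *Nfil3* stood at 0.748. With LPS, p30 against p42, the 0 lower members became 1 (*Gfi1*) with the same number of peaks per list, with q under 1e-05 and with 100 kb, and 2 with 20 kb (*Gfi1* and *Nfil3*), where the higher members went from 1 to 2 (with *Irf8*). *Gfi1* was between 0.44 and 0.481 untreated in every setting and between 0.603 and 0.689 with LPS. H3K4me1 gave 2 higher members in place of 1 (with *Irf8*) with q under 1e-05 and with 20 kb, and 1 lower (*Nfil3*) in place of 0 with 20 kb. The *Id2* ratio was 4.11 with 100 kb and 9.87 with equal list size, and its p42 locus had no H3K4me1 left with q under 1e-05 or with 20 kb. Regions gained and lost with LPS in both lines went from 6 and 6 to 2 and 0 when presence needed q under 1e-05. Chosen after seeing the data, leaving out the *Zeb2* locus took the gained regions from 6 to 1. The causes were not tested. The counts of CEBPA sites per list, of sites in all 4 lists, of promoter peaks and of CEBP cores moved by at most 1.5 times in every setting tried. Ranking by fold enrichment left *Spi1* and *Zeb2* as the 2 members that moved up. Depth is not given by the lists, so an absent peak means only that none passed the threshold.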
